A study of Mus musculus with 9 samples.

Results

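Mouse calvarial osteoblast cultures carried transcripts of 10 genes that are typical of macrophages, namely C1qa, C1qb, C1qc, Csf1r, Lyz2, Cd68, Mrc1, Tyrobp, Fcer1g and Ptprc. They were chosen by name as established macrophage and leukocyte genes, 10 of the 40548 genes in the expression table, and all 10 were found in every table. The cells came from calvaria (skull vault bone) of C57BL/6 mice at postnatal day 2-3 by the labels (the methods give C57BL/6J pups aged 1-5 days) and were not sorted, so the cultures could hold any cell released from the bone. Day 0 libraries were from confluent cells without differentiation, and day 4 and day 7 libraries were from cells given mineralization medium for 4 or 7 days, with 3 libraries per stage labelled as replicates 1 to 3. Total RNA was depleted of ribosomal RNA before sequencing. By the labels, cells without mineral were released with trypsin alone and mineralized cells with collagenase I before trypsin, so the stage, the medium and the way of dissociation cannot be told apart. The study's methods allow passaging once and the use of pups of both sexes, and the labels do not say how many pups or isolations stand behind a library, so the spread between libraries may be partly technical.

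Macrophages live in bone next to osteoblasts and are carried into cultures of enzymatically released bone cells. They depend on signals through the receptor encoded by Csf1r, whose ligands osteoblast lineage cells produce, and they clear debris and immune complexes through receptors that signal by way of small adaptor proteins. They are also a main source of C1q, the recognition molecule of the classical complement pathway, which is built of 3 chains encoded by C1qa, C1qb and C1qc. The comparison addressed here is whether these transcripts changed as the cultures differentiated, and whether they kept fixed proportions to each other, as a single population of constant character would give if only its share of the RNA changed. In bulk RNA, fewer cells of a type and less RNA per cell cannot be told apart.

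The libraries held 7741204 to 37306090 reads on genes, with all 3 day 4 libraries above the others. Of 10 osteoblast genes 9 were higher at day 7 than at day 0, and Runx2 did not pass the test. Day 4 values come from tables of their own, so they are set beside the others with no test. The 3 libraries that stood apart were day 0 replicate 3, which had the fewest reads and 119626 CPM (reads scaled to a common library total) of the transcript Gm42418, day 7 replicate 2 with 81172 CPM of it, and day 7 replicate 3 with 79467 CPM of Plekhh2. All 10 macrophage genes kept their day 7 call when any 1 of these libraries was left out.

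The 3 C1q genes lay side by side on chromosome 4 of the mouse genome (build GRCm38), within 18.7 kb at chr4:136880129-136898803, in the order C1qb, C1qc, C1qa, all on the minus strand. The others were spread over the genome, Lyz2 on chromosome 10 at chr10:117277331-117282321, Cd68 on 11 at chr11:69664213-69666153, Mrc1 on 2 at chr2:14229392-14332057, Tyrobp on 7 at chr7:30413760-30417585, and Fcer1g and Ptprc on 1 at chr1:171229572-171234365 and chr1:138062861-138175708. The RefSeq promoter table of GRCm38.p6, which gives 250 bases before to 50 after each start site, held 8 windows for 7 of the 10 genes (2 of them for Ptprc). PU.1, encoded by Spi1, is a factor that drives many myeloid genes, and the core of its motif was searched for as GAGGAA on both strands. It was found in 5 of the 8 windows, those of C1qb, C1qc, Cd68 and Mrc1 and 1 of those of Ptprc, against 28.3% of all 32851 windows in the table. The longer form GAGGAAGT, which contains the shorter one, was in 1 window (C1qc) against 3.20% of all windows. TTGCNNAA, a C/EBP motif, and TGANTCA, an AP-1 motif, were each in 1 window (Cd68), against 10.8% and 7.81% of all. A match is a run of letters and not a shown binding site. Below are the 80-base stretches with the short motif in capitals for the neighbours C1qb and C1qc, shown because these 2 genes lie side by side and both rose. They are read 5′ to 3′ on the minus strand, the gene's own strand, at chr4:136886201-136886280 for C1qb and chr4:136893065-136893144 for C1qc, and in C1qc the motif stands on the opposite strand (TTCCTC).
C1qb: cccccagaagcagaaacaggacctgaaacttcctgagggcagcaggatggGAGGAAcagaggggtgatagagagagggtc
C1qc: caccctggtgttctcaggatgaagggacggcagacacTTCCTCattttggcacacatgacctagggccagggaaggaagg
Counted from the start site the motif began at position -30 in C1qb and at position -193 in C1qc.

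In each stage Lyz2 stood far above the other genes. Levels between genes are given as RPKM, which divides the reads by the library total and by the length of the gene model. At day 0 Lyz2 was at 47.7 ± 14.3 RPKM (SD, n = 3 here and below), followed by Cd68 at 3.83 ± 0.679, C1qa at 3.63 ± 0.927, C1qb at 2.59 ± 0.835, Tyrobp at 2.46 ± 0.308 and C1qc at 1.65 ± 0.451. Csf1r, Fcer1g, Mrc1 and Ptprc were the lowest in that order, at 0.959 ± 0.377, 0.822 ± 0.470, 0.692 ± 0.254 and 0.037 ± 0.027 RPKM. Of the neighbours in this order, the libraries failed to overlap only between Lyz2 and Cd68, between Tyrobp and C1qc, and between Mrc1 and Ptprc. At day 7 Lyz2 was at 79.4 ± 11.7 RPKM, and the chains of C1q had moved up to the places behind it or near it, with C1qa at 11.9 ± 1.71 and C1qb at 8.53 ± 1.35, then Cd68 at 6.95 ± 0.693 and C1qc at 6.17 ± 0.539. Tyrobp followed at 6.00 ± 1.41, Fcer1g at 2.71 ± 0.287, Csf1r at 1.92 ± 0.264, Mrc1 at 1.57 ± 0.357 and Ptprc at 0.129 ± 0.015 RPKM. At that stage the neighbours Lyz2 and C1qa, C1qb and Cd68, Tyrobp and Fcer1g, Fcer1g and Csf1r, and Mrc1 and Ptprc had libraries that did not overlap. At day 4 the order was Lyz2, C1qa, Cd68, C1qb, Tyrobp, C1qc, Fcer1g, Csf1r, Mrc1 and Ptprc, and the neighbours without overlap were Lyz2 and C1qa, Fcer1g and Csf1r, Csf1r and Mrc1, and Mrc1 and Ptprc. Reads shared with other genes were checked for the 10 genes only, and 8 of them shared under 0.1% of their 50-base stretches with another gene, while Csf1r and Lyz2 shared more, as given with their values. The place of Ptprc rests on the long gene model used for it, 17763 bases as implied by the ratio of its CPM to its RPKM.

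All 10 genes rose between day 0 and day 7. The limma fit with Benjamini-Hochberg adjustment called each of them higher, against a background of 12.6% of the 12712 genes tested that were called higher and 18.6% called lower (1602 and 2369 genes). With median-of-ratios scaling, which moved the median of all genes from -0.11 to -0.01, the split was 2827 higher and 2629 lower, and all 10 macrophage genes were still higher. The log2 fold changes, on the scale of log2(CPM + 0.5), ran from 0.76 (Lyz2) to 1.77 (C1qc), with a median of 1.18 against -0.11 over all genes tested. In each of the 10 the lowest day 7 library was above the highest day 0 library, which held for 16.9% of genes tested. At 3 libraries against 3 the exact two-sided permutation test on single genes cannot give less than p = 0.1, and each gene gave that value. At day 4, without a test, 9 of the 10, all but Mrc1, had every day 4 library above every day 0 library (21.6% of genes), and 4 of the 10, the C1q genes and Ptprc, had every day 7 library above every day 4 library (13.6% of genes), while 0 of the 10 had every one below (25.0% of genes). The summed level of the 10 over the 3 stages was 86.4 ± 25.4, 146 ± 9.03 and 169 ± 21.5 CPM, and without Lyz2 it was 26.1 ± 7.40, 53.3 ± 6.87 and 68.8 ± 6.78 CPM.

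**Figure D1:**
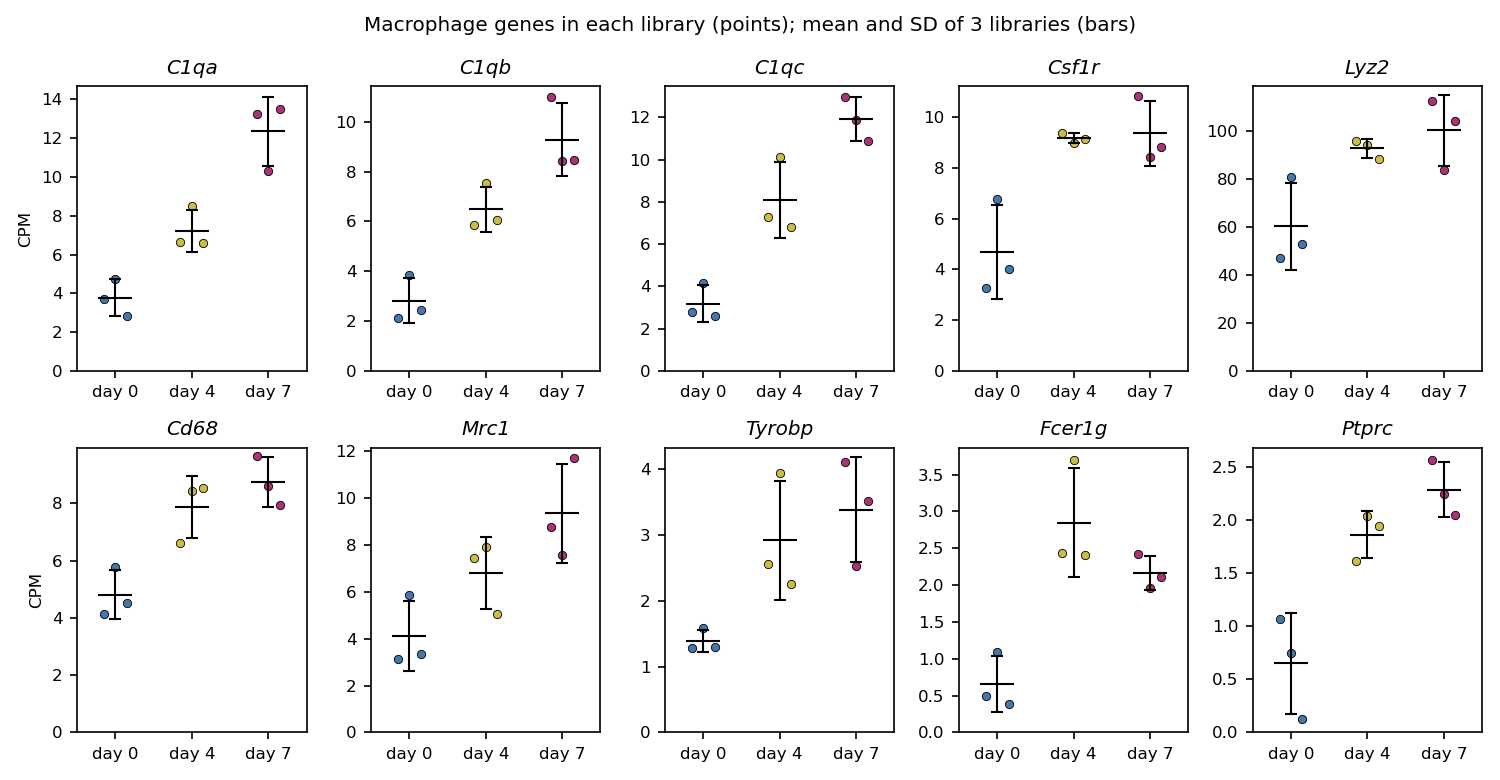
CPM (reads scaled to a common library total, y axis from 0, a scale for each panel) of the 10 macrophage genes at day 0, day 4 and day 7. Points are the 3 libraries of a stage, and the bars are their mean and SD. In every panel the day 7 points lie above the day 0 points, while Fcer1g has its highest mean at day 4.

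The C1q chains had the largest fitted log2 fold changes, while by the ratio of mean CPM, which has no pseudocount, Ptprc (3.51-fold) came between C1qc (3.74-fold) and the other chains. C1qa, the A chain, was at 3.71, 4.77 and 2.84 CPM in the day 0 libraries (replicates 1 to 3, in that order here and below), 6.64, 8.49 and 6.57 CPM on day 4 and 13.2, 10.3 and 13.5 CPM on day 7. Its stages did not overlap, and its mean was 3.27-fold higher at day 7 than at day 0 (log2 fold change 1.60, SE 0.21, adjusted p = 2.55e-08, limma). C1qb, the B chain, was at 2.14, 3.85 and 2.45 CPM at day 0, 5.85, 7.53 and 6.07 at day 4 and 11.0, 8.43 and 8.44 at day 7. It too stepped up without overlap at both intervals, by 3.30-fold in all (log2 fold change 1.59, SE 0.22, adjusted p = 1.21e-07, limma). C1qc, the C chain, was at 2.78, 4.18 and 2.58 CPM, then 7.31, 10.1 and 6.82, then 12.95, 11.9 and 10.9, a 3.74-fold rise from day 0 to day 7 (log2 fold change 1.77, SE 0.21, adjusted p = 2.29e-09, limma). From day 4 to day 7 the means of the 3 chains rose 1.71-fold, 1.43-fold and 1.47-fold, against a range of 0.760-fold (Fcer1g) to 1.37-fold (Mrc1) in the other 7 genes.

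The 3 chains stayed close to each other between day 0 and day 7, while C1qa was lower relative to the other chains at day 4 than at day 0. C1q holds its chains in equal numbers, and over the 9 libraries the RPKM of C1qa was 1.13 to 1.81 times that of C1qb (median 1.26), and the RPKM of C1qc 0.593 to 0.795 times that of C1qb (median 0.704). The log2 ratio of C1qa to C1qb differed by 0.02 between day 7 and day 0 (exact permutation p = 1, n = 3 and 3), that of C1qc to C1qb by 0.19 (exact permutation p = 0.2), and that of C1qa to C1qc by -0.17 (exact permutation p = 0.4). With 3 libraries a stage these p-values do not show that the chains moved alike. At day 4, without a test, the log2 ratio of C1qa to C1qb averaged 0.15, against 0.38 at day 0 and 0.39 at day 7. Its day 4 libraries were below those of both other stages without overlap. The log2 ratio of C1qa to C1qc averaged 0.22, -0.14 and 0.04 at days 0, 4 and 7, and day 4 was below day 0 without overlap. Of 6 other genes of the classical pathway 4 were tested and 1 was called higher, against 12.6% of all genes. That was Serping1, which encodes the C1 inhibitor, with means of 5.85, 30.6 and 19.2 CPM at days 0, 4 and 7 (log2 fold change 1.61, adjusted p = 3.91e-09, limma). C1ra and C1s, the proteases that ride on C1q, were at 31.1 and 13.7 CPM at day 0 and at 28.6 and 15.8 CPM at day 7 (adjusted p = 0.654 and 0.436, limma). C2, a later component, was under the minimum for the test with means of 0.396, 1.42 and 1.56 CPM over the stages, and was called higher by 1.24 when all genes with reads were tested (adjusted p = 0.00129, limma).

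The surface receptors Csf1r and Mrc1 rose by about the same factor as each other. Csf1r, the receptor for the growth factors CSF-1 and IL-34, was at 3.28, 6.77 and 4.00 CPM at day 0, 9.38, 9.001 and 9.12 at day 4 and 10.8, 8.43 and 8.83 at day 7. Its day 4 libraries were all above day 0 and overlapped with day 7, and the mean was 2.00-fold higher at day 7 than at day 0 (log2 fold change 0.98, SE 0.22, adjusted p = 0.000466, limma). Csf1r lies on chromosome 18 at chr18:61100598-61132149 and shares 873 exonic bases with Hmgxb3 on the opposite strand. By the study's methods only unambiguous reads were counted, so reads assigned to both genes would be left out. Strandedness in counting is not given in the sources used here, so how far Hmgxb3 affects the count of Csf1r cannot be told. Hmgxb3 itself was at 51.5 CPM at day 0, 55.1 at day 4 and 48.4 at day 7 (adjusted p = 0.721, limma). The ligand gene Csf1 was at 221 CPM at day 0, 310 at day 4 and 186 at day 7 (log2 fold change -0.25, adjusted p = 0.222, limma). The other ligand gene, Il34, was at 7.35, 11.8 and 8.12 CPM (log2 fold change 0.14, adjusted p = 0.650, limma). For Csf1 the difference passed without day 0 replicate 3 (-0.29, adjusted p = 0.0309, limma) and with quality weights per library (-0.34, adjusted p = 0.000367, limma).

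Mrc1, which encodes the mannose receptor, was at 3.14, 5.85 and 3.36 CPM at day 0, 7.43, 7.93 and 5.07 at day 4 and 8.78, 7.58 and 11.7 at day 7. Day 4 replicate 3 lay below day 0 replicate 2, so Mrc1 was the gene whose day 0 and day 4 libraries overlapped. From day 0 to day 7 its mean rose 2.27-fold (log2 fold change 1.12, SE 0.22, adjusted p = 8.39e-05, limma).

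The lysosomal genes rose the least. Lyz2, which encodes the lysozyme of macrophages and neutrophils, was at 47.0, 80.9 and 53.1 CPM at day 0, 96.2, 94.2 and 88.5 at day 4 and 113, 84.0 and 105 at day 7. Day 0 replicate 2 came close to day 7 replicate 2 without reaching it, and the mean rose 1.67-fold (log2 fold change 0.76, SE 0.17, adjusted p = 0.000432, limma). Lyz2 shares 15.4% of its 50-base stretches with the neighbouring copy Lyz1, which had 1 to 21 reads per library against 411 to 3515 for Lyz2. Cd68, a glycoprotein of late endosomes and lysosomes, was at 4.14, 5.77 and 4.52 CPM at day 0, 6.61, 8.44 and 8.54 at day 4 and 9.66, 8.61 and 7.93 at day 7. Its mean was 1.64-fold higher at day 4 and 1.82-fold higher at day 7 than at day 0 (log2 fold change 0.81, SE 0.21, adjusted p = 0.00200, limma). Of 11 lysosomal genes that most cells use, all tested, 2 were higher at day 7 (Hexa, log2 fold change 0.65, and Ctsz, 0.40), Grn was lower (-0.57) and 8 did not pass, with a median of -0.11, shares near the 12.6% and 18.6% of all genes. The call for Ctsz was lost without any 1 of the libraries other than day 0 replicate 3 (adjusted p from 0.0716 to 0.167, limma).

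The adaptor genes were among the lowest in reads. Tyrobp, which encodes the adaptor of TREM2 and related receptors, was at 1.28, 1.59 and 1.29 CPM at day 0, 2.56, 3.94 and 2.25 at day 4 and 4.10, 2.53 and 3.52 at day 7, a 2.44-fold rise of the mean from day 0 to day 7 (log2 fold change 1.02, SE 0.25, adjusted p = 0.00118, limma). Fcer1g, the shared signalling chain of Fc receptors, was at 0.499, 1.09 and 0.387 CPM at day 0, which is 7, 13 and 3 reads. It reached 2.44, 3.70 and 2.41 CPM at day 4 and 2.42, 1.97 and 2.11 at day 7, so that it was the only one of the 10 whose mean fell short of its day 4 value at day 7, though these libraries overlapped. From day 0 to day 7 its mean rose 3.29-fold (log2 fold change 1.25, SE 0.28, adjusted p = 0.000401, limma). Among 10 genes of receptors and a kinase that work with these adaptors, 3 were abundant enough to test and 2 were called higher, against 12.6% of all genes. Of the 3, Trem2 (log2 fold change 1.06, adjusted p = 0.00157, limma) and Fcgr3 (1.09, adjusted p = 0.000206) rose, while Syk, the kinase recruited by both adaptors, gave -0.35 (adjusted p = 0.144). With quality weights per library Syk was called lower (-0.46, adjusted p = 0.000512, limma). Trem2 and Fcgr3 are counted again among the 43 other macrophage genes below.

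Ptprc, the phosphatase carried by nearly all leukocytes, was at 1.07, 0.752 and 0.129 CPM at day 0, which is 15, 9 and 1 reads. At day 4 it was at 1.61, 2.04 and 1.94 CPM and at day 7 at 2.56, 2.25 and 2.05 CPM, with no overlap between any 2 stages. Its mean rose 3.51-fold from day 0 to day 7 (log2 fold change 1.37, SE 0.29, adjusted p = 0.000213, limma). Fcer1g and Ptprc were under the minimum mean of 1 CPM at day 0 and were tested because of their day 7 level. On the RPKM table with the same pseudocount, 1 of 17 alternatives, the call for Ptprc was lost (log2 fold change 0.23, adjusted p = 0.157, limma), and its RPKM values are small against that pseudocount.

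The libraries of a stage moved up or down across the genes. Day 0 replicate 2 had the highest day 0 value in 9 of the 10 genes, all but Ptprc, and in the summed level it was at 116 CPM against 69.0 and 74.6 CPM in replicates 1 and 3. Among the day 7 libraries replicate 1 was the highest in 8 genes, and C1qa and Mrc1 were highest in replicate 3. The share of all genes with the same order of libraries was not counted, so this need not be particular to the 10.

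A test of fixed proportions asks for the change of each gene relative to the mean log2 level of all 10, called the index here. The index, as a geometric mean, was at 3.04, 4.54 and 2.78 CPM on day 0, 6.67, 8.19 and 6.51 CPM on day 4 and 9.55, 7.69 and 8.59 CPM on day 7. In the limma fit relative to the index, 2 of the 10 genes departed from it between day 0 and day 7. C1qc rose more than the index, by 0.55 on the log2 scale (SE 0.24, adjusted p = 0.0261), and Lyz2 rose less, with -0.47 (SE 0.20, adjusted p = 0.0216). Cd68 gave -0.42 (SE 0.24, adjusted p = 0.0863), C1qa 0.38 (SE 0.24, adjusted p = 0.121) and C1qb 0.36 (SE 0.25, adjusted p = 0.159), and the other 5 lay between -0.25 (Csf1r) and 0.14 (Ptprc) with adjusted p from 0.309 to 0.954. Because the index itself rose, 94.7% of all genes tested departed from it, so the adjustment hardly raised the p-values of the members (0.0244 before it and 0.0261 after it for C1qc). The errors in this fit are those of a typical gene against the index, since its variances were drawn wholly to the trend over all genes. They are wide for some of the 10, whose ratio to the other 9 had a within-stage SD of 0.117 for C1qc and 0.109 for C1qa, but 0.415 for Ptprc. A gene not called in this fit is therefore not shown to have kept its proportion. Over the alternatives the adjusted p ran from 6.92e-07 to 0.126 for C1qc and from 2.51e-15 to 0.410 for Lyz2. Neither call is firm: none of the 10 was called without day 0 replicate 3 or without any 1 of the day 7 replicates, while 4 were called without day 0 replicate 1 and 3 without day 0 replicate 2.

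**Figure D2:**
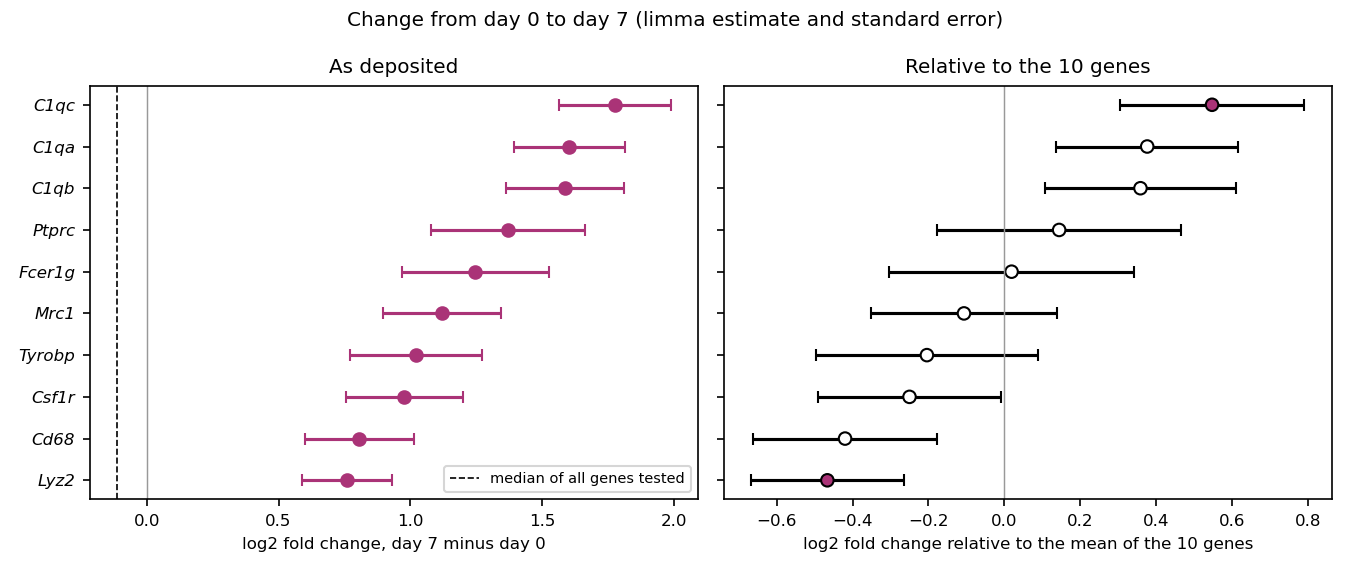
Estimated log2 fold change from day 0 to day 7 with its standard error for the 10 macrophage genes. The left panel has the change as deposited, in log2(CPM + 0.5), with the median of all genes tested (-0.11) as a dashed line, and the right panel has it relative to the mean of the 10 genes, where filled points (C1qc, 0.55, and Lyz2, -0.47) passed an adjusted p of 0.05 and open points did not.

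Set directly against the other 9 genes in each library, 5 genes had day 0 and day 7 libraries that did not overlap. C1qa, C1qb and C1qc were higher relative to the others at day 7, and Lyz2 and Cd68 were lower (exact permutation p = 0.1 each, the smallest possible with 3 and 3 libraries). Each gene is part of the reference for the others, here and in the fit to the index. A rise of the C1q genes therefore lowers the ratios of the rest, and these departures are not independent of each other. For comparison, 93.9% of all genes tested had no overlap in their ratio to the index. The log2 ratio of C1qc to the others was -0.12, -0.12 and -0.10 in the day 0 libraries, 0.14, 0.32 and 0.07 at day 4 and 0.47, 0.66 and 0.36 at day 7, a step at each interval. That of Lyz2 was 4.16, 4.46 and 4.48 at day 0, 4.17, 3.83 and 4.07 at day 4 and 3.88, 3.74 and 3.92 at day 7, and its day 4 libraries overlapped with those of both other stages. Csf1r and Tyrobp (exact permutation p = 0.3 each), Mrc1 and Ptprc (p = 0.7 each) and Fcer1g (p = 0.8) overlapped between day 0 and day 7.

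Fcer1g had a pattern of its own at day 4. Its log2 ratio to the other 9 was -2.03, -1.85 and -2.09 at day 0 and -1.98, -1.92 and -1.999 at day 7, but -1.43, -1.17 and -1.41 at day 4, above both without overlap. Of all genes tested, 87.1% had a ratio to the index without overlap between day 4 and day 0, and 44.4% between day 7 and day 4. The partner adaptor Tyrobp did not share the day 4 peak of Fcer1g: the log2 ratio of Fcer1g to Tyrobp averaged -0.75 at day 0, -0.02 at day 4 and -0.53 at day 7. Within a stage the ratios spread with an SD of 0.109 (C1qa) to 0.415 (Ptprc) on the log2 scale. Read counting alone would give an SD of 0.043 (Lyz2) to 0.232 (Fcer1g). Gene by gene, the C1q genes, Tyrobp and Fcer1g spread no more than counting gives (C1qa 0.109 against 0.146, Fcer1g 0.114 against 0.232). Csf1r, Lyz2, Cd68, Mrc1 and Ptprc spread more (Lyz2 0.155 against 0.043, Ptprc 0.415 against 0.220).

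**Figure D3:**
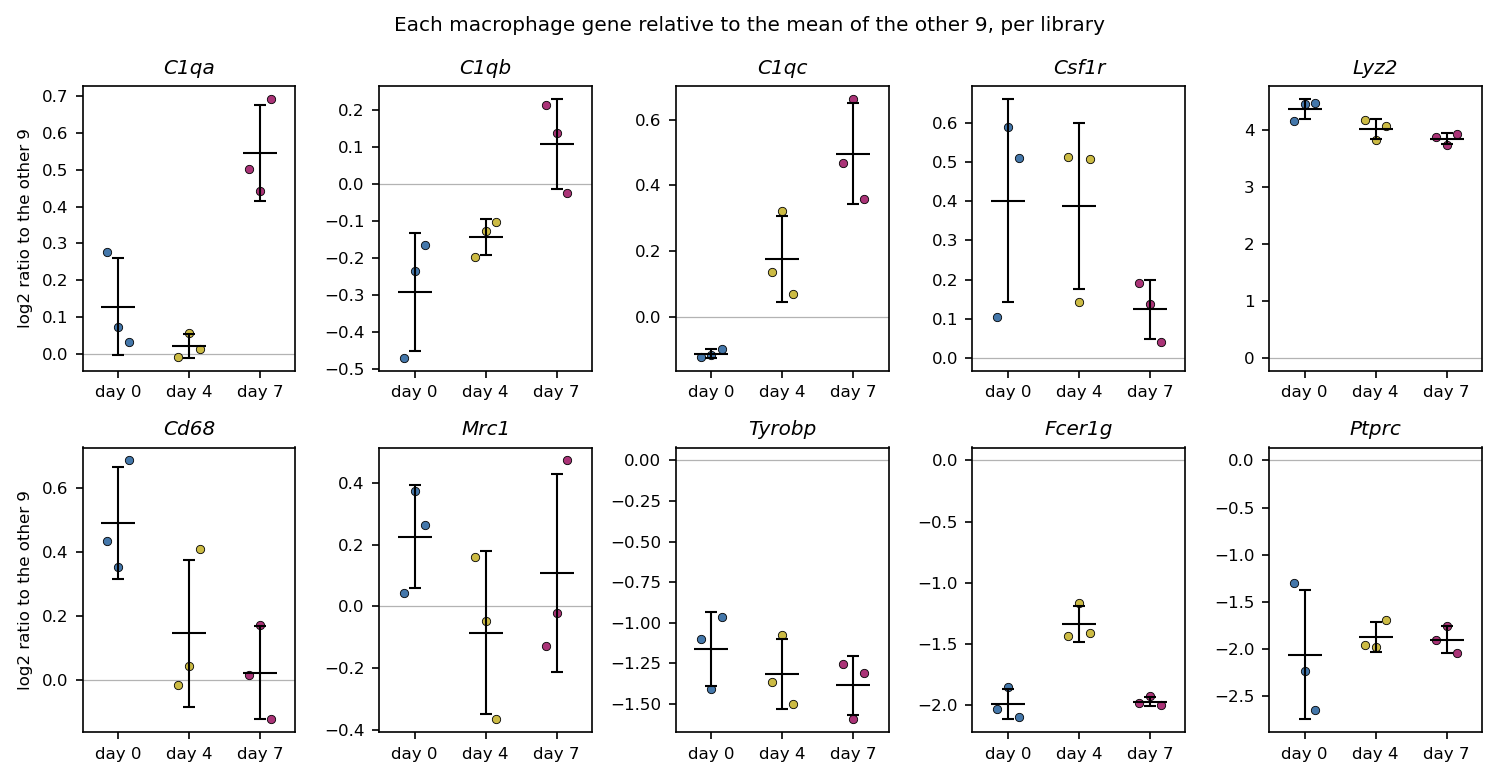
Log2 ratio of each macrophage gene to the mean of the other 9 (y axis, a scale for each panel) in the 9 libraries at day 0, day 4 and day 7. Points are libraries, bars are the mean and SD of 3, and the grey line marks a ratio of 1 (log2 of 0). The C1q genes end higher and Lyz2 and Cd68 lower at day 7 than at day 0. Fcer1g is highest at day 4, and its day 0 ratio leans on the pseudocount.

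In every day 7 library the C1q genes were higher relative to each of the other classes than in any day 0 library. The mean of the 3 relative to Lyz2, in log2, was -3.84, -4.10 and -4.10 at day 0, -3.77, -3.37 and -3.67 at day 4 and -3.14, -2.99 and -3.22 at day 7, with no overlap between any 2 stages. The difference of 0.89 between day 7 and day 0 gave the smallest exact permutation p of 0.1. Relative to the mean of Csf1r, Cd68 and Mrc1 it was -0.42 ± 0.13, -0.12 ± 0.13 and 0.27 ± 0.07 over the stages, again with no overlap. Relative to Tyrobp, Fcer1g and Ptprc it was 1.48 ± 0.22, 1.37 ± 0.03 and 1.92 ± 0.03, where day 0 and day 4 overlapped. These groupings of genes were made by role and with the values known, and they share the C1q genes. In contrast, Cd68 relative to Lyz2 differed by 0.05 (exact permutation p = 0.9) and Mrc1 relative to Csf1r by 0.14 (exact permutation p = 0.8).

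Counted in reads, Lyz2 made up 69.7% ± 1.54 of the reads on the 10 genes at day 0, 63.6% ± 2.72 at day 4 and 59.2% ± 1.48 at day 7. Of the reads outside Lyz2, the C1q genes held 37.5% ± 1.41, 40.8% ± 1.69 and 48.7% ± 0.998. The composition of the reads over the 10 genes was compared between pairs of libraries by a chi-square divided by its degrees of freedom, which is near 1 when only read sampling differs. Between 2 libraries of the same stage it was 0.508 to 6.00 (median 1.83, 9 pairs). Pairs of day 0 libraries reached 1.21 and pairs of day 7 libraries 2.03, while pairs of day 4 libraries gave 3.13 to 6.00. Between day 0 and day 7 it was 3.88 to 7.95 (median 4.65, 9 pairs), above every pair within either of these stages. Day 0 against day 4 gave a median of 2.43 and day 4 against day 7 a median of 6.17, and the deeper day 4 libraries raise this measure at the same difference in composition. Without Lyz2, Cd68 and Mrc1, which other cells also use, the median was 1.11 within a stage (0.403 to 3.85) and 1.99 between day 0 and day 7 (1.25 to 3.06). Here the pairs between day 0 and day 7 were not all above the pairs of day 0 libraries, which reached 1.42. The median was 1.88 between day 0 and day 4, and 4.04 (3.09 to 6.55) between day 4 and day 7. Dropping Lyz2 takes away most of the reads, and fewer reads lower this measure at the same difference in composition.

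A longer list of 43 other macrophage genes moved mostly the same way, with exceptions. Of the 26 with a mean of at least 1 CPM, 19 were higher at day 7 by limma with Benjamini-Hochberg adjustment, 2 were lower and 5 did not pass (12.6% and 18.6% of all genes were higher and lower), with a median log2 fold change of 0.97 against -0.11 over all genes tested. With all 43 tested, 20 were higher and 2 lower, in a fit of the 23787 genes with any reads, of which 1816 were higher and 2248 lower. Ncf1, Cd84, Slc11a1, Pld4, Folr2 and Cybb averaged under 1 CPM at day 0, so they too were tested because of their day 7 level. Adgre1, which encodes the macrophage antigen F4/80, was at 4.30 CPM at day 0, 6.98 at day 4 and 7.62 at day 7 (log2 fold change 0.85, adjusted p = 0.00425), a call that was lost without day 0 replicate 1 (adjusted p = 0.0630), without day 7 replicate 1 (adjusted p = 0.0573) or with quality weights per library (log2 fold change 0.31, adjusted p = 0.154). Mpeg1, a pore-forming protein of phagocytes, rose by 1.74 and Lcp1, an actin-bundling protein of leukocytes, by 1.23 on the log2 scale, near the C1q genes. By contrast Ncf1 went far beyond the 10 genes. Ncf1, a subunit of the phagocyte NADPH oxidase, was at 0.968 CPM at day 0, 20.1 at day 4 and 35.5 at day 7 (log2 fold change 4.62, adjusted p = 2.75e-24).

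F13a1, a transglutaminase, was among those that fell. It was at 14.7, 10.9 and 8.42 CPM over the 3 stages (log2 fold change -0.76, adjusted p = 0.00234, limma). Itgb2 (0.51), Cx3cr1 (0.52), Msr1 (0.09), Mertk (0.21) and Cbr2 (-0.39) did not pass. Of these, Mertk passed in 4 of 18 alternatives (up to 0.33), Cx3cr1 in 3 of 17 (up to 0.74), Itgb2 by edgeR alone (0.80, adjusted p = 0.0457) and Cbr2 without day 7 replicate 1 alone (-0.62, adjusted p = 0.0278, limma). Spi1, the gene of PU.1, was under the minimum for the test with means of 0.40, 1.26 and 1.39 CPM. Of the 26 genes, 17 had every day 4 library above every day 0 library, against 21.6% of all genes.

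**Figure D4:**
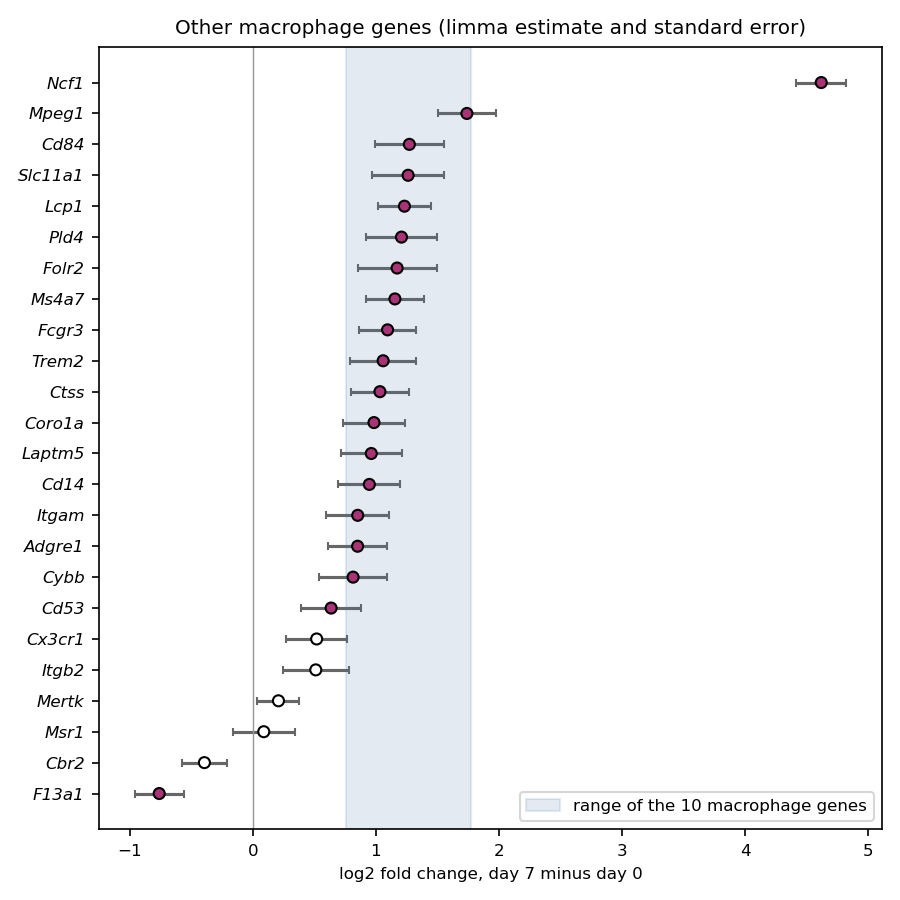
Log2 fold change from day 0 to day 7 with its standard error for the other macrophage genes tested that are reported here, in log2(CPM + 0.5). Filled points passed an adjusted p of 0.05, and the shaded band spans the 10 macrophage genes, 0.76 to 1.77. Most genes lie in or near the band, Ncf1 (4.62) lies far above it, and F13a1 (-0.76) and Cbr2 (-0.39, not past the threshold) lie below 0.

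Of 5 genes of class II antigen presentation 2 were tested, 1 higher and 1 lower. H2-Ab1, a class II chain, rose from 0.443 CPM at day 0 to 9.84 at day 4 and 12.5 at day 7 (log2 fold change 3.78, adjusted p = 2.26e-18, limma), while Cd74, the invariant chain that pairs with class II in antigen presenting cells, fell from 5.87 to 1.46 and 0.582 CPM (-2.56, adjusted p = 1.06e-11, limma). H2-Aa, H2-Eb1 and the class II regulator Ciita were at 0.200, 0.290 and 0.614 CPM at day 0 and 0.0525, 0.113 and 0.183 CPM at day 7 and were not tested. H2-Ab1 also averaged under 1 CPM at day 0 and was tested because of its day 7 level.

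Among osteoclast genes, which belong to a sister lineage of macrophages, 7 of 11 were tested, 3 were higher and 1 was lower, against 12.6% and 18.6% of all genes. Acp5, tartrate-resistant acid phosphatase, was at 1.20 CPM at day 0, 12.3 at day 4 and 10.6 at day 7 (log2 fold change 2.74, adjusted p = 3.05e-13, limma), and Atp6v0d2 and Ctsk rose by 1.13 and 0.95 on the same scale. Atp6v0d2 averaged 0.557 CPM at day 0 and was tested because of its day 7 level. Mmp9 was lower (-0.86, adjusted p = 0.0136, limma), a call lost without day 0 replicate 2 or 3 or day 7 replicate 1 (adjusted p = 0.0807, 0.0612 and 0.170). Markers of mature osteoclasts too low for the test were Calcr at 0 to 4 reads, Dcstamp at 0 to 1, Oscar at 0 to 7 and Ocstamp at 1 to 31 reads per library. Other genes of the list were well above these, with Ctsk at 178 CPM at day 0 and 343 at day 7. Itgb3, Nfatc1 and Tnfrsf11a were at 53.7, 23.0 and 2.03 CPM at day 0 and 61.6, 24.8 and 2.12 CPM at day 7, and did not pass. The part of osteoclast lineage cells in the rise of the 10 genes was not tested.

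Markers of neutrophils, lymphocytes and red cells were at or near 0. The 10 neutrophil genes summed to at most 0.920 CPM in any library, with Ly6g and Elane at 0 in all 9 and S100a8 at 0 to 3 reads. T and NK cell genes summed to 0.752 to 2.36 CPM, most of it Lck, with Cd3g and Ncr1 at 0, and B cell genes to 0.214 to 0.586 CPM, with Ms4a1 at 0. None of the genes of these 3 lists reached the minimum for the test, nor did those of the erythroid list, which summed to at most 1.28 CPM. Of the mast cell genes, 1 of 7 was tested and rose, Kit (from 0.0709 to 2.14 and 2.90 CPM), while Mcpt4, Tpsb2 and Fcer1a were at 0 in all libraries. The megakaryocyte genes summed to 7.86 to 11.6 CPM, with Itga2b at 5.25 and Gp1bb at 3.86 CPM at day 0. Of them Pf4, which macrophages also use, rose by 1.00 (adjusted p = 0.00218, limma), Itga2b was lower (-0.84) and Gp9 was at 0. Of the endothelial genes 1 of 8, Esam, was tested and rose (from 0.193 to 1.72 and 2.97 CPM), with Pecam1 at 0 to 13 reads and Emcn and Tie1 at 0. Kit, Pf4 and Esam averaged under 1 CPM at day 0 and were tested because of their day 7 level, so a rise was the outcome they could give.

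Genes in and outside the macrophage list followed the course of the 10 genes closely. Over the 9 libraries, likeness to the index was measured by the SD of log2(CPM + 0.5) minus the index, smaller being more alike, among 12772 other genes with a mean of at least 1 CPM (median SD 0.660). The 10 most alike were Ciart (0.108), Lcp1 (0.121), Helb (0.130), Uaca (0.134), Fhod1 (0.136), Hebp1 (0.137), Col1a2 (0.142), Pltp (0.143), Grhpr (0.144) and Mtss1 (0.147). Of these, Lcp1 was in the macrophage list, and Col1a2, a chain of the main collagen of bone, was at 19934 CPM at day 0, 45566 at day 4 and 48404 at day 7. Of the 50 most alike, 3 were in the macrophage list (Lcp1, Spi1 and Ms4a7) and 44 in no list, while 27 of the 12772 genes ranked were in the macrophage list. The 10 genes themselves had SDs from 0.183 (C1qb) to 0.333 (Ptprc), each being a part of the index. The libraries share depth and stage in this measure, and it is a description over 9 libraries.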

How the data were processed

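RNA-seq of 9 libraries was used, 3 each at day 0, day 4 and day 7. The authors aligned reads with STAR 2.0.4b to Ensembl release 76 (GRCm38), counted uniquely aligned reads per gene with featureCounts (1.4.5 in the methods, 1.45 per the labels) and deposited CPM, scaled to each library's reads on genes. The authors also deposited RPKM, which divide by gene length as well. Strand in counting is not given in the sources used here. Repeated lines (276 and 273) were identical and used once. In every library 100% of CPM values were whole multiples of 1 read.

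For the difference between day 0 and day 7, limma 3.58.1 (R 4.3.3, trended variances) was fitted to log2(CPM + 0.5) for 12712 genes averaging at least 1 CPM, with Benjamini-Hochberg adjustment over all of them and a threshold of 0.05. A second fit subtracted the mean of the 10 genes. The prior had 42.9 degrees of freedom in the first fit against 4 residual ones. Day 4 lies in tables of its own and was compared by overlap. Single values had exact two-sided permutation tests. The scripts were tested on simulated data. Fold changes with a pseudocount understate low genes, and counting SDs cover counting error only.

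The 10 genes and all lists were chosen with earlier results of these data known. Named were the 10 genes in full, from each other list the largest called rise and the largest called fall, members against the list's direction and defining markers, and the 10 genes most like the index. Further genes named (Lyz1, Hmgxb3, Gm42418, Plekhh2, Spi1, Pf4, C1ra, C1s, H2-Aa, H2-Eb1, Ciita, Adgre1 and Mpeg1 among them) were chosen after their values were seen. Some genes of the lists are counted but not reported by name here. Alternatives were other pseudocounts, filters, the RPKM table, median-of-ratios scaling, robust variances, quality weights, a replicate block, leaving out each replicate, and edgeR 4.0.16, DESeq2 1.42.0 and voom on the recovered reads, and those for single genes of the smaller lists were added after the data were seen. Sequences were from RefSeq and positions from GENCODE M21, both on GRCm38.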

Additional observations from a re-analysis of the deposited data

How the results depend on the processing

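The rise of the macrophage genes was called in 10 of 10 under every alternative run except 2: with a minimum of 5 CPM 7 were tested and 7 called, and from RPKM 9 were called. Of the other macrophage genes, 5 of 9 tested were higher with a minimum of 5 CPM (fewer genes tested), 14 to 18 with 1 replicate left out and 18 to 22 elsewhere, and 2 or 3 were lower. Genes departing from the index, 2 of 10 as reported, numbered 1 with a pseudocount of 1, 4 on the RPKM table, 8 with quality weights, 3 with edgeR on the members' read total, and 0 to 4 with 1 replicate left out. The cause was not tested. Relative log2 fold changes reversed with edgeR for Csf1r (0.051), Mrc1 (0.23) and Tyrobp (0.28). There the reference was the read total of the members, most of it Lyz2. On the RPKM table they reversed for Tyrobp (0.054) and Ptprc (-0.83, adjusted p = 0.000372 by limma), and the RPKM values of Ptprc are small against the pseudocount. They also reversed with a pseudocount of 1 for Fcer1g (-0.14) and Ptprc (-0.053), and with an index of 7 genes for Fcer1g (-0.12). The largest value of Fcer1g over the alternatives was 0.73. With 1 replicate left out Fcer1g ran from -0.027 (without day 0 replicate 3, and -0.0011 without day 7 replicate 2) to 0.082, Ptprc from -0.12 (without day 0 replicate 3) to 0.48, and Msr1, also reversed with quality weights (-0.098), from -0.15 (without day 0 replicate 1) to 0.26. The chi-square ratio of day 0 to day 7 was 4.61 to 6.03 with 1 replicate left out. Without Lyz2, Cd68 and Mrc1, which leaves far fewer reads, it was 1.99.

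Same-numbered day 0 and day 7 libraries did not deviate together (correlations -0.02, -0.18 and -0.44). The main fit did not pair them. With deviations taken from only 3 libraries per stage, this check cannot exclude a pairing. With the replicate block 10 of 10 macrophage genes were higher, 0 departed from the index (C1qc adjusted p = 0.0615 and Lyz2 0.0880, limma), 18 other macrophage genes were higher, and 3413 genes in all were called, against 3971 without it. Over all genes the count ran from 2906 without day 7 replicate 1 to 8086 with quality weights, and was 5468 by edgeR and 4910 by DESeq2 on recovered reads. Median-of-ratios scaling moved the median of all genes from -0.11 to -0.01 and the calls from 1602 higher and 2369 lower to 2827 higher and 2629 lower.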
